A study of Mus musculus with 3 samples.

Results

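The mouse cytochrome P450 family 2 (Cyp2) was followed in bulk liver RNA sequencing of male C57BL/6J mice, 10 weeks old when the diets began. Members were all rows of the deposited table typed as protein-coding whose symbol starts with Cyp2, then a subfamily letter and a number: 50 of the 35275 genes listed, or of 22026 protein-coding genes, in 14 subfamilies. The study had 3 libraries, 1 per group. Control mice ate normal chow. NASH mice, named for nonalcoholic steatohepatitis, were untreated and received western diet plus liquid fructose, with 24 weeks in the label. TH-treated NASH mice had the same diet for 16 weeks and were then given the thyroid hormones T3 (35 ng/g) and T4 (7 ng/g) for 8 weeks in drinking water with 15% fructose. Both NASH libraries thus share the diet, and only the last received hormone. Whether 1 or several animals make up a library is not stated, so the spread between animals is unknown and no test between groups was run. Intervals given with a fold cover counting error only.

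Cyp2 enzymes are heme proteins of the endoplasmic reticulum that insert an oxygen atom into a substrate, with electrons passed to them by cytochrome P450 reductase. In hepatocytes they clear drugs, solvents and steroids, convert arachidonic acid to epoxides and reshape bile acids. Many lie in tandem clusters of near-identical genes, and in mouse liver a number of them are made mainly in one sex, under the pulsatile or steady growth hormone of males and females, or mainly around the central vein of the lobule.

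Values are FPKM (fragments divided by gene length and by the library total) as the authors deposited them. The libraries held 54576236, 47009255 and 38303410 fragments on genes in control, NASH and TH-treated NASH, so the last gives the widest counting intervals. Wherever 3 values follow each other, they keep this order of control, NASH and TH-treated NASH, and "with hormone" means TH-treated NASH against NASH. Folds are ratios of FPKM. In the 3 libraries 26, 29 and 30 members stood at 1 FPKM or more. All 3 libraries had Y-linked Ddx3y, at 13.4, 14.5 and 17.3 FPKM, and Xist at 0.0113, 0.00718 and 0.00735 FPKM, and all are labelled male. The 9 hepatocyte markers summed to 55216, 37754 and 38942 FPKM, with albumin, Alb, the highest of them in each library, and the 6 macrophage markers to 93.8, 279 and 331 FPKM.

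Taken as a whole, the family was near its control level in NASH and lower in TH-treated NASH. Its 50 genes summed to 8373, 7916 and 4884 FPKM. They took 1.52% (exact binomial 95% interval 1.517 to 1.524), 1.44% (1.43 to 1.44) and 0.860% (0.858 to 0.863) of library fragments. The sum was 1.06-fold lower in NASH than in control and 1.62-fold lower in TH-treated NASH than in NASH. In fragments scaled to the library total the second difference was 1.67-fold (1.66 to 1.68). RNA from bulk liver cannot tell fewer cells of a type from less RNA per cell, and this holds for each value that follows.

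The subfamilies did not move alike. Of the 9 that reached 1 FPKM, 8 were lower in TH-treated NASH than in NASH, and the exception was the barely detected Cyp2b. Cyp2c, the subfamily with most members, summed to 1371, 953.6 and 592 FPKM and was lower at both steps, 1.44-fold and 1.61-fold. Cyp2d summed to 2303, 2061 and 1315 FPKM, 1.12-fold lower and then 1.57-fold lower. Much of that fall lay in Cyp2d9, which stood at 1016, 745 and 154 FPKM. Cyp2a summed to 430, 618 and 481 FPKM and was thus highest in NASH, 1.44-fold over control. The Cyp2b sum, at 0.115, 1.78 and 1.97 FPKM, was 15.4-fold higher in NASH than in control, though it came from only 12 control fragments. For Cyp2e, Cyp2j and Cyp2u the NASH sum exceeded control by 1.05-fold, 1.03-fold and 1.10-fold, and median-of-ratios and TMM scaling both turned these 3 directions.

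**Figure D1:**
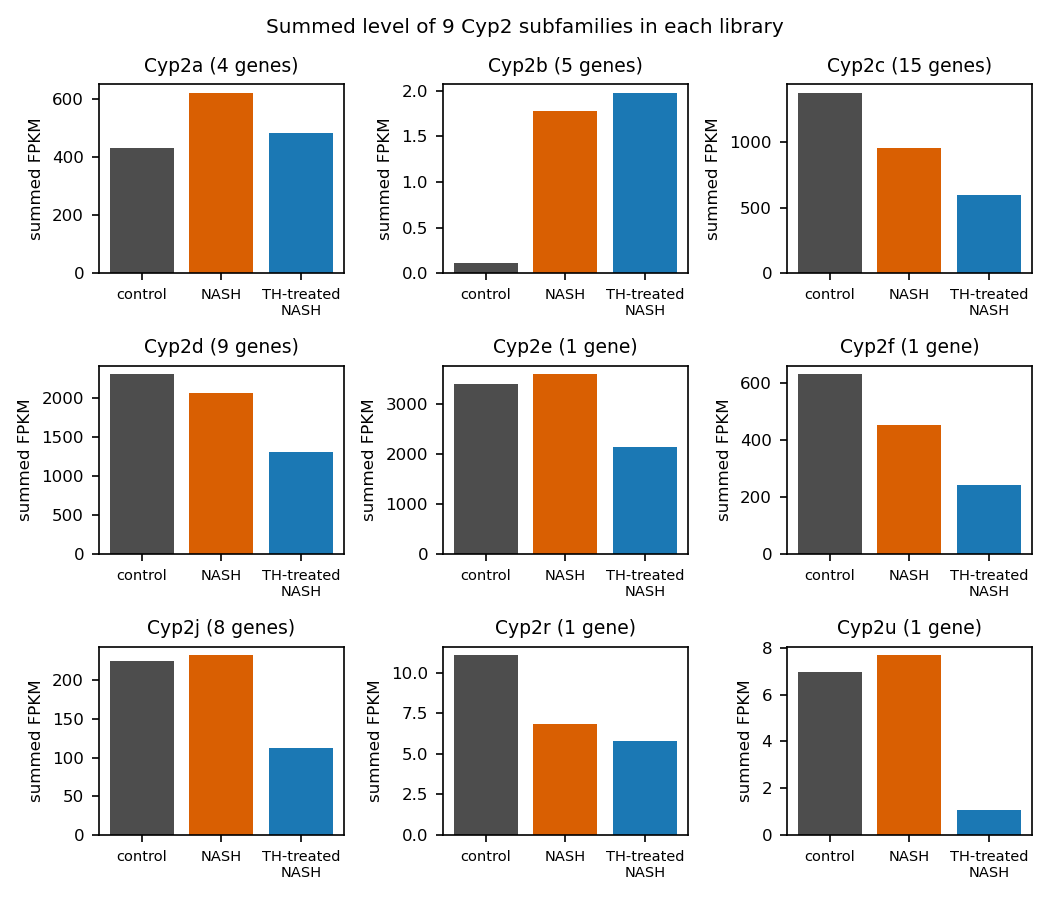
Summed FPKM (vertical axes, each from 0 with its own range) of the 9 subfamilies that reached 1 FPKM, one bar per library and no error bars since each group is 1 library. Cyp2c, Cyp2d, Cyp2f and Cyp2r step down from control to NASH to TH-treated NASH, Cyp2a peaks in NASH, and Cyp2b is low throughout.

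Counted gene by gene with thresholds of 1 FPKM in either library and 2-fold on the log2(FPKM + 1) scale, which understates the fold of low genes, few members were called between control and NASH. A gene is called higher or lower only where it passes both thresholds, so a low gene can differ by over 2-fold in FPKM and not be called. Of 30 members that passed the filter 3 were higher (10%), against 3.33% of all genes, and 2 were lower (6.67%), against 0.774%. The 3 higher members, Cyp2a4, Cyp2a22 and Cyp2b9, passed the filter only through the NASH library. Of the 2 lower members, Cyp2c54 passed it in both libraries and Cyp2c40 only through control. Under median-of-ratios or TMM scaling, which match libraries on their typical gene, the split was 2 higher and 4 lower. Either scaling shifts the median of all genes, which was 0.12 in log2, to -0.07 or -0.03, and with median-of-ratios 2.33% of all genes were higher and 1.24% lower. The members' own median was -0.16, and -0.47 or -0.33 under these scalings.

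More members were called between NASH and TH-treated NASH, 9 of 13 of them lower. Here 31 members passed the filter, 28 of them at 1 FPKM or more in both libraries. Of the 31, 9 were lower (29.0%), against 2.77% of all genes, and 4 were higher (12.9%), against 2.73%. The members' median log2 ratio was -0.45, beside -0.03 over all genes counted. The 4 higher members, Cyp2a4, Cyp2c40, Cyp2c68 and Cyp2c69, all have close copies within the family, whose values are given beside them. Of these 4, Cyp2c40 and Cyp2c69 passed the filter only through TH-treated NASH. TH-treated NASH against control gave 11 of 31 lower (35.5%), against 2.42% of all genes, and 7 higher (22.6%), against 5.57%. Only 3 of these 7 higher members, but 10 of the 11 lower ones, stood at 1 FPKM or more in both libraries. Median-of-ratios scaling left 11 lower and 5 higher there, with 3.36% and 4.11% of all genes. These 3 comparisons share libraries and are not independent of each other.

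**Figure D2:**
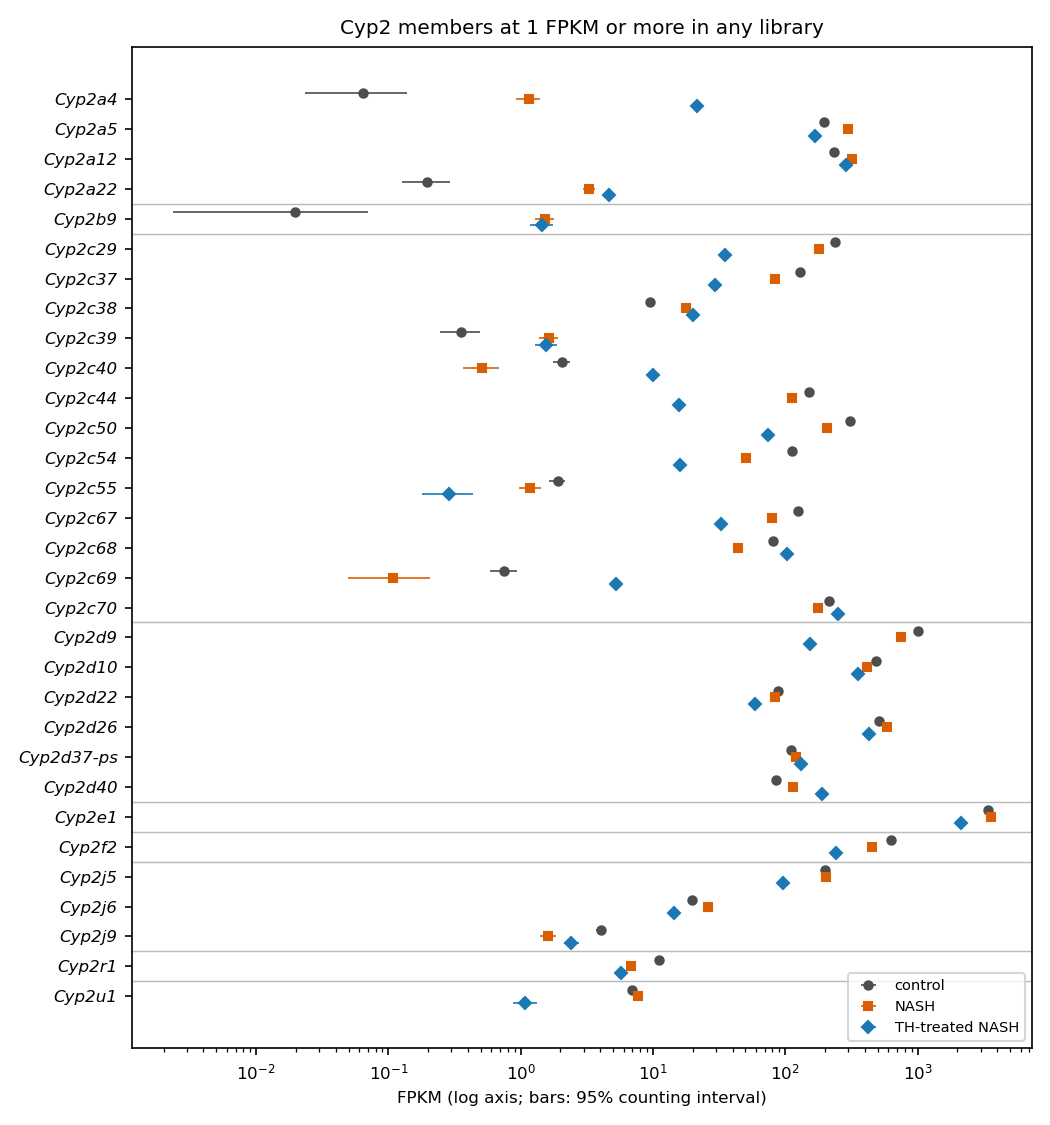
FPKM on a log axis of the 31 members at 1 FPKM or more in any library, grouped by subfamily, with 1 point per library and bars for the exact 95% Poisson counting interval. Cyp2e1 lies furthest right in all 3 libraries, and the blue points of Cyp2c29, Cyp2c44, Cyp2d9 and Cyp2u1 lie well to the left of their other points.

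Among the enzymes of small toxic molecules, Cyp2e1, which oxidizes ethanol and acetaminophen, was the most abundant member in each library and made up 40.6%, 45.3% and 43.7% of the family's FPKM. It stood at 3397, 3583 and 2132 FPKM, so that only the hormone-treated library was low, 1.68-fold under NASH (1.67 to 1.69). Cyp2f2, which activates naphthalene and is a periportal gene in liver, stood at 629, 451 and 240.2 FPKM. It was lower at each step, 1.39-fold (1.38 to 1.41) and 1.88-fold (1.84 to 1.91), and was called only in TH-treated NASH against control, at 2.62-fold.

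The epoxygenases, which turn arachidonic acid into signalling epoxides, made up 6 of the 9 members called lower with hormone. The 12 members listed for this activity summed to 1174, 885 and 315 FPKM. With hormone 6 of the 12 were called lower and 1 higher, with a median log2 ratio of -0.95, beside 2.77% and 2.73% of all genes and their median of -0.03. In NASH against control 2 were called lower and none higher, beside 0.774% and 3.33% of all genes. Of these 2, Cyp2c54 and Cyp2c40, the latter passed the filter only through control. The low Cyp2c55, Cyp2c39 and Cyp2j9 also differed by over 2-fold in FPKM without being called, Cyp2c55 4.11-fold lower with hormone (2.59 to 6.82), and in NASH against control Cyp2c39 4.61-fold higher (3.16 to 6.89) and Cyp2j9 2.50-fold lower (2.12 to 2.96).

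Cyp2c44 stood furthest below NASH among the 12. The gene lies on chromosome 19 from 44005022 to 44029247 in the deposited coordinates, apart from the other Cyp2c genes. It was listed at 152, 112 and 15.6 FPKM, the last value 7.19-fold under NASH (6.77 to 7.64). GENCODE M21 names the same gene ID Cyp2c23, and no 50-base window of its transcript was found in a transcript of another gene. Cyp2c29, an epoxygenase inducible by phenobarbital through the receptor CAR, stood at 236, 179 and 35.1 FPKM. TH-treated NASH was 5.10-fold lower than NASH (4.93 to 5.28), while NASH was 1.32-fold lower than control. Only 2.08% of its windows occur elsewhere.

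Cyp2c37, Cyp2c50 and Cyp2c54, neighbours whose coding sequences are 95.1% to 96.1% identical, were lower together at both steps. Cyp2c50 was listed at 306, 206 and 74.1 FPKM, Cyp2c37 at 130, 83.3 and 29.4, and Cyp2c54 at 112, 50.8 and 16.1. Their sum, which depends less on how reads were split among them, was 547, 340 and 120 FPKM, 2.85-fold lower in TH-treated NASH than in NASH (2.78 to 2.91). Of these 3, Cyp2c54 alone was also called in NASH against control, at 2.20-fold lower (2.12 to 2.28).

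The Cyp2j epoxygenases were represented mainly by Cyp2j5, which makes up 89.4%, 88.1% and 85.1% of its subfamily. It stood at 201, 204 and 96.2 FPKM, close between control and NASH and 2.13-fold lower with hormone (2.07 to 2.18). Cyp2j6, at 19.6, 25.9 and 14.3 FPKM, was 1.81-fold lower at that step. Cyp2j9 was instead lowest in NASH, at 4.05, 1.62 and 2.42 FPKM. The other low epoxygenases split: Cyp2c55 was listed at 1.90, 1.18 and 0.288 FPKM, whereas Cyp2c38, at 9.47, 17.7 and 20.02 FPKM, was 2.11-fold over control in TH-treated NASH (1.98 to 2.26). Cyp2c39 stood at 0.353, 1.63 and 1.57 FPKM, higher in both diet libraries.

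The Cyp2d subfamily was led by Cyp2d9, a male-predominant testosterone hydroxylase on chromosome 15 from 82452377 to 82456827. Cyp2d9 stood at 1016, 745 and 154 FPKM. The hormone library was 4.85-fold under NASH (4.75 to 4.95), and the gene went from 44.1% of the Cyp2d sum in control to a smaller share than Cyp2d26, which led in TH-treated NASH with 32.5%. Of its 50-base windows 29.0% occur in other transcripts, those of Cyp2d12 first. Cyp2d26 itself was listed at 515, 584 and 427 FPKM and Cyp2d10 at 489, 411 and 354. Both of these, and Cyp2d22 at 87.8, 84.1 and 59.1 FPKM, stayed within 2-fold in each comparison.

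Cyp2d40, in the same cluster, was called higher in TH-treated NASH than in control. It stood at 85.1, 114 and 189 FPKM, 2.22-fold over control (2.14 to 2.29) and 1.66-fold over NASH, which was not called. Cyp2d37-ps, typed as protein-coding in the table and as a transcribed pseudogene in GENCODE M21, was listed at 110, 121 and 131 FPKM and called in no comparison. Between control and NASH the direction of Cyp2d26 was turned by median-of-ratios scaling and that of Cyp2d37-ps by TMM scaling too.

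**Figure D3:**
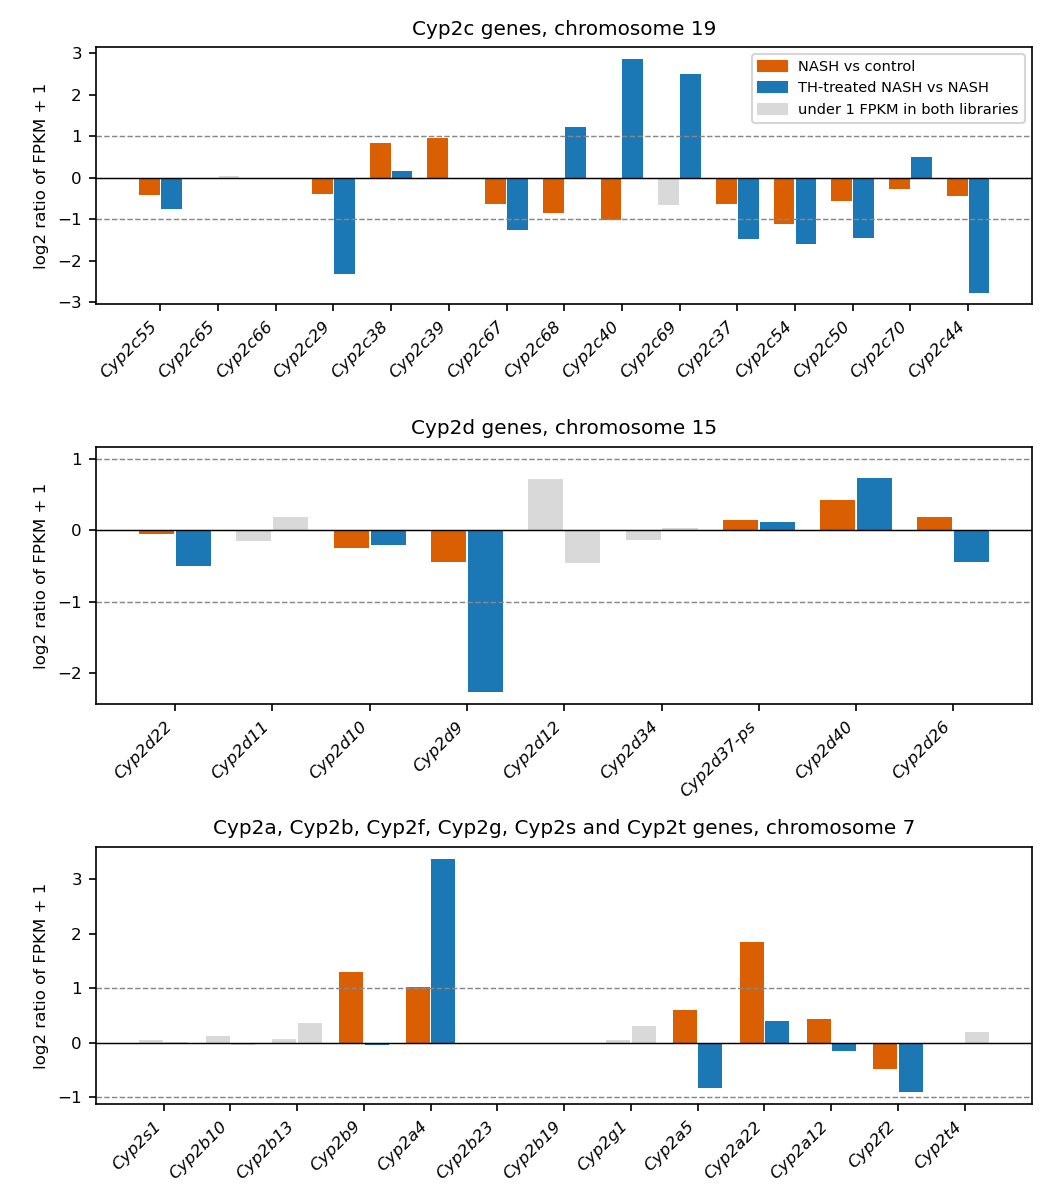
Log2 ratios of FPKM + 1 for every member of the clusters on chromosomes 19, 15 and 7, in the order of their start positions, with NASH against control in orange, TH-treated NASH against NASH in blue and members under 1 FPKM in both libraries in grey. Dashed lines mark 2-fold. The blue bars of Cyp2c68, Cyp2c40 and Cyp2c69 point up beside those of Cyp2c67 and Cyp2c37, which point down. Among the Cyp2d genes Cyp2d9 alone lies past the lower line.

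Close relatives could stand at very different levels. Cyp2d9 and Cyp2d11 are 93.3% identical in coding sequence, yet Cyp2d11 was listed at only 0.380, 0.241 and 0.411 FPKM. The stretches before their starts are shown because the levels of this pair lay far apart in each library. They lie before the RefSeq starts in GRCm38.p6, at chr15:82452143-82452376 on the plus strand and chr15:82394036-82394272 on the minus strand. Over 237 aligned columns 215 were identical (90.7%), with 19 mismatches and 3 gap columns, and capitals mark bases that differ from the partner or have none in it.
Cyp2d9: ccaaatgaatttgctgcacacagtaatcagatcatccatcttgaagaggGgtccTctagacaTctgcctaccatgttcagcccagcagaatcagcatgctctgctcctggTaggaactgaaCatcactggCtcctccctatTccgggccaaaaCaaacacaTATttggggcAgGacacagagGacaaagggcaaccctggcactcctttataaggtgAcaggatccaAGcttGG
Cyp2d11: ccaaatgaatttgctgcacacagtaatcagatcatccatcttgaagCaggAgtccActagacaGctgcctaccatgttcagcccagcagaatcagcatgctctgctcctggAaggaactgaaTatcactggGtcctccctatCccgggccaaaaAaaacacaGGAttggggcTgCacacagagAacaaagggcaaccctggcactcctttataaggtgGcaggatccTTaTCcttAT

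The Cyp2a genes metabolize coumarin, nicotine, steroids and bile acids. Cyp2a5, the coumarin hydroxylase, stood at 195, 296 and 168 FPKM. It was highest in NASH, 1.52-fold over control (1.49 to 1.55), and 1.77-fold lower with hormone (1.73 to 1.80). Cyp2a12, a hydroxylase of steroids and bile acids, was listed at 235, 317 and 288 FPKM, so that it stayed above control in both diet libraries. Its close copy Cyp2a22 stood at 0.198, 3.30 and 4.68 FPKM, 16.7-fold higher in NASH than in control (11.0 to 26.4), from 24 and 345 fragments. Cyp2a22 made up at most 1.60% of the FPKM of this pair, which is 97.0% identical in coding sequence.

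Cyp2a4, a steroid hydroxylase made mainly in female liver, was higher at both steps, from a control level near 0. It lies on chromosome 7 from 26307190 to 26315088 and was listed at 0.0640, 1.15 and 21.3 FPKM, from 6, 93 and 1404 fragments. The ratio was 18.0-fold (7.96 to 50.3) in NASH against control and 18.5-fold (15.0 to 23.1) in TH-treated NASH against NASH. Cyp2a5, 98.4% identical to it in coding sequence, was lower at the second step, so the 2 genes moved in opposite directions while 38.01% of the 50-base windows of Cyp2a4 occur in other transcripts. Summed, the pair stood at 195, 297 and 189 FPKM, and the share of Cyp2a4 in that sum was 0.0329%, 0.388% and 11.3%.

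The DNA before these starts is about as alike as the genes, which is why it is shown. The stretches are chr7:26306943-26307158 for Cyp2a4 and chr7:26835089-26835304 for Cyp2a5, both on the plus strand of GRCm38.p6. They end 34 and 35 bases before the RefSeq starts, because the deposited span of Cyp2a5 begins there. The letters TATAAA, at -28 and -29 from those starts, are thus not shown. Of 216 aligned bases 212 were identical (98.1%), and the 4 that differ are in capitals.
Cyp2a4: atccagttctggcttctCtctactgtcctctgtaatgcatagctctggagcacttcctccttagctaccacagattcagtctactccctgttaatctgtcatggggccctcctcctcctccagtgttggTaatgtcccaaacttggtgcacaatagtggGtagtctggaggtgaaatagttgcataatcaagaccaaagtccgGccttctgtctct
Cyp2a5: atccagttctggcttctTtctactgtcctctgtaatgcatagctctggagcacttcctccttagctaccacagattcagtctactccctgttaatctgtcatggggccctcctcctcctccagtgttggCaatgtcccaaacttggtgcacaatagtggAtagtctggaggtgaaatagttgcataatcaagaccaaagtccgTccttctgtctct

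A second group of close copies also split. Cyp2c40, Cyp2c67, Cyp2c68 and Cyp2c69 adjoin each other on chromosome 19, between 39608842 and 39886769, and are 96.5% to 98.1% identical in coding sequence. Cyp2c67 was listed at 125, 79.5 and 32.4 FPKM, 2.45-fold lower with hormone (2.34 to 2.58). Cyp2c68 went from 80.6 through 43.9 to 103.5 FPKM, 2.36-fold higher with hormone (2.27 to 2.46).

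The other two are female-predominant and low. Cyp2c40 stood at 2.04, 0.507 and 10.02 FPKM, from 201, 43 and 692 fragments, and Cyp2c69 at 0.745, 0.108 and 5.27 FPKM, from 72, 9 and 357. Both were lowest in NASH, Cyp2c40 4.03-fold under control (2.88 to 5.74), and TH-treated NASH was 19.8-fold (14.5 to 27.5) and 48.7-fold (25.4 to 107) higher. In control Cyp2c67 made up 59.9% of the FPKM of the group and Cyp2c68 38.7%. In TH-treated NASH Cyp2c68 held 68.5%, Cyp2c67 21.4%, Cyp2c40 6.63% and Cyp2c69 3.48%.

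The sum of these 4 genes stood at 208, 124 and 151 FPKM, 1.68-fold lower in NASH than in control (1.64 to 1.72). With hormone it was far steadier than the single genes, 1.22-fold higher (1.19 to 1.26). Shared windows were frequent here, 72.1% of those of Cyp2c40, 54.8% of Cyp2c69, 52.8% of Cyp2c67 and 43.3% of Cyp2c68. With each group of copies counted as 1 gene, none of 24 was called higher with hormone, beside 2.73% of all genes, and 6 were called lower, beside 2.77%. Without the members that share over 25% of their windows, none of 18 was called higher and 4 were called lower, beside the same shares. The 18 include Cyp2d37-ps, whose windows were not counted. How the authors' counting treated reads that fit several copies is not stated in any label or header read here, and its part in the single-gene values was not tested.

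**Figure D4:**
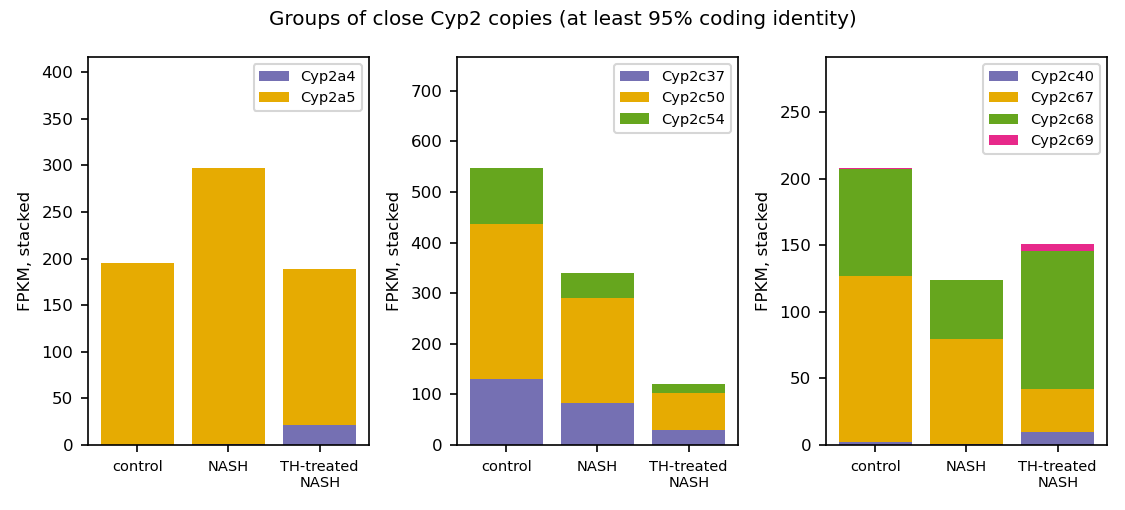
Stacked FPKM of 3 groups of members with at least 95% coding identity, 1 bar per library, with the height of a bar the sum of the group. Cyp2c68 takes over the bar of its group in TH-treated NASH and Cyp2a4 becomes visible there, while Cyp2c37, Cyp2c50 and Cyp2c54 keep similar proportions at lower sums.

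Before the starts, Cyp2c69 and Cyp2c67 differ more than the Cyp2a pair. They are shown because they gave opposite ratios within the group. The aligned stretches are chr19:39886770-39886969 for Cyp2c69 and chr19:39649093-39649292 for Cyp2c67, both on the minus strand of GRCm38.p6. They end 1 base before the RefSeq start of Cyp2c69 and 51 bases before that of Cyp2c67. The bases next to the Cyp2c67 start, with the letters TATAAA at -40, are thus not shown. Of 200 aligned bases 186 were identical (93%), and capitals mark the 14 that differ.
Cyp2c69: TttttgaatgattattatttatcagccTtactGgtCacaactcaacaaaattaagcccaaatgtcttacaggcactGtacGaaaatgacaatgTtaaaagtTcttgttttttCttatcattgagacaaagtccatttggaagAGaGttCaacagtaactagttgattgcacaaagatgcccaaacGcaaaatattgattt
Cyp2c67: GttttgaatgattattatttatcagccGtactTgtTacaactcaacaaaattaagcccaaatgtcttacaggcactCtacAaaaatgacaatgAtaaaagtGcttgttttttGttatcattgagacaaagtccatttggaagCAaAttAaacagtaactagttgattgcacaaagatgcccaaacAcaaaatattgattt

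Cyp2c70, the enzyme that makes the muricholic acids of mouse bile, has no close copy. It stood at 215, 177 and 249 FPKM, lowest in NASH and 1.41-fold higher with hormone (1.37 to 1.44). Its share of the Cyp2c sum reached 42.0% in TH-treated NASH, where it replaced Cyp2c50, which led with 22.3% in control and 21.6% in NASH. None of its windows is shared with another gene.

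Single-gene subfamilies covered hormones and fatty acids. Cyp2u1, a fatty acid hydroxylase, was listed at 6.97, 7.67 and 1.09 FPKM, close between control and NASH and 7.06-fold lower with hormone (5.72 to 8.81). Cyp2r1, the vitamin D hydroxylase, stood at 11.1, 6.81 and 5.76 FPKM, 1.62-fold lower in NASH than in control (1.46 to 1.81) and within 2-fold in each comparison.

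The Cyp2b genes, which phenobarbital induces or which are made mainly in females, were scarce. Cyp2b9 stood at 0.0195, 1.52 and 1.447 FPKM, from 2, 134 and 104 fragments, and the ratio of NASH to control was 77.8-fold (21.1 to 649). Cyp2b13 had 0, 5 and 26 fragments. Cyp2b10, the usual reporter of the receptor CAR, was listed at 0.0956, 0.200 and 0.164 FPKM and so stayed under 1 FPKM in all libraries. In all, 19 members stayed under 1 FPKM throughout, and 7 of these had no fragment: Cyp2b19, Cyp2b23, Cyp2c66, Cyp2j7, Cyp2j11, Cyp2j12 and Cyp2w1. For a gene 2 kb long a count of 0 allows up to 0.0275, 0.0319 and 0.0392 FPKM. Closest under the threshold of 1 FPKM was Cyp2d12, at 0.883 FPKM in NASH, and the olfactory Cyp2g1 reached 0.719 in TH-treated NASH. Of the other single-gene subfamilies Cyp2s1 stood at 0.0696, 0.114 and 0.132 FPKM, Cyp2t4 at 0.0458, 0.0399 and 0.196, and Cyp2ab1 at 0.0135, 0.0313 and 0.00960.

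By sex bias, the members divided. The 7 female-biased genes of the list (Cyp2a4, Cyp2b9, Cyp2b13, Cyp2c38, Cyp2c39, Cyp2c40 and Cyp2c69) summed to 12.7, 22.6 and 60.0 FPKM. In NASH against control 2 of 5 that passed the filter were called higher and 1, Cyp2c40, lower, beside 3.33% and 0.774% of all genes. Cyp2c40 passed the filter there only through control, and the 2 higher genes, Cyp2a4 and Cyp2b9, only through NASH. With hormone 3 of 6 were called higher and none lower, beside 2.73% and 2.77%, and these 3, Cyp2a4, Cyp2c40 and Cyp2c69, all belong to groups of close copies. In TH-treated NASH against control 5 of 6 were called higher, beside 5.57%, with Cyp2c39 4.44-fold higher in FPKM and not called, and 4 of the 7 reached 1 FPKM only outside control. The male-predominant Cyp2d9 was instead 6.61-fold under control in TH-treated NASH (6.47 to 6.75). Regulators of this bias were read from the same libraries. Cux2, a repressor of male-biased genes that is itself female-specific in liver, stood at 0.0813, 0.0252 and 1.41 FPKM, Trim24 at 5.89, 6.47 and 15.1, and Bcl6, a male-biased repressor, at 6.83, 12.5 and 5.84. Of the 11 growth hormone and sex-bias genes 2, Cux2 and Trim24, were called higher and none lower with hormone, beside 2.73% and 2.77% of all genes. Cux2 passed the filter only through TH-treated NASH. In TH-treated NASH against control 3 of the 11 were called higher and none lower, beside 5.57% and 2.42% of all genes. They were Cux2, Trim24 and Stat5a, the last at 3.48, 5.19 and 8.49 FPKM, 2.44-fold over control (2.23 to 2.68). In NASH against control 1 of the 10 that passed the filter, Cish, was called lower, beside 0.774% of all genes. Not called, but over 2-fold apart in FPKM, were Bcl6, 2.14-fold lower with hormone (1.98 to 2.31), Onecut1, 2.42-fold lower (2.01 to 2.93), and Socs2, 2.01-fold lower in NASH than in control. The growth hormone receptor gene Ghr stood at 127, 131 and 75.8 FPKM.

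By position in the lobule, members and zone markers were counted apart. Of the 6 pericentral members (Cyp2a5, Cyp2c29, Cyp2c37, Cyp2c50, Cyp2c54 and Cyp2e1) 4 were called lower with hormone, beside 2.77% of all genes, with a median log2 ratio of -1.47, beside -0.03. The periportal Cyp2f2 was 1.88-fold lower and not called. Of the zone markers outside the family, the 7 pericentral ones summed to 665, 1145 and 847 FPKM, with 1 of 7, Oat, called lower with hormone and glutamine synthetase, Glul, at 360, 716 and 663 FPKM. Axin2 was 2.47-fold lower in FPKM (2.10 to 2.92) and not called. With hormone 5 of the 7 pericentral markers were below NASH and 2 above it, while all 7 were above control in NASH. The 5 periportal ones summed to 1856, 1127 and 1625 FPKM, and 4 of 5 were above NASH with hormone. Sds, at 2.10-fold, was called higher, beside 2.73% of all genes.

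The partners of the enzymes stayed within 2-fold. Por, the reductase that supplies their electrons, stood at 171, 150 and 239 FPKM, highest where the family was lowest, and Cyb5a, cytochrome b5, at 567, 636 and 369. None of the 4 electron donors and none of the 8 heme synthesis genes was 2-fold apart in any comparison. Alas1, the first enzyme of heme synthesis, was listed at 174, 132 and 192 FPKM.

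Of the 16 receptors and liver factors that act on Cyp2 genes only Esr1 was called in any comparison. Esr1, the estrogen receptor, stood at 2.73, 2.16 and 6.63 FPKM. It was called higher in TH-treated NASH against NASH and against control, beside 2.73% and 5.57% of all genes. Nr1i3, which encodes CAR, was listed at 99.1, 85.8 and 66.7 FPKM and Nr1i2, which encodes PXR, at 35.2, 33.6 and 38.8. Hnf4a stood at 134, 92.6 and 114 FPKM and Cebpa at 268, 252 and 162. Of 10 other genes induced through these receptors that passed the filter, 7 were called lower with hormone and none higher, beside 2.77% and 2.73% of all genes. They include Cyp3a11, at 1252, 1006 and 246 FPKM, the glutathione transferase Gstm1, at 999.5, 1550.2 and 276, and the transporter Abcc3, at 36.2, 58.9 and 4.38. Cyp3a13, at 66.4, 48.2 and 57.5 FPKM, did not share this.

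**Figure D5:**
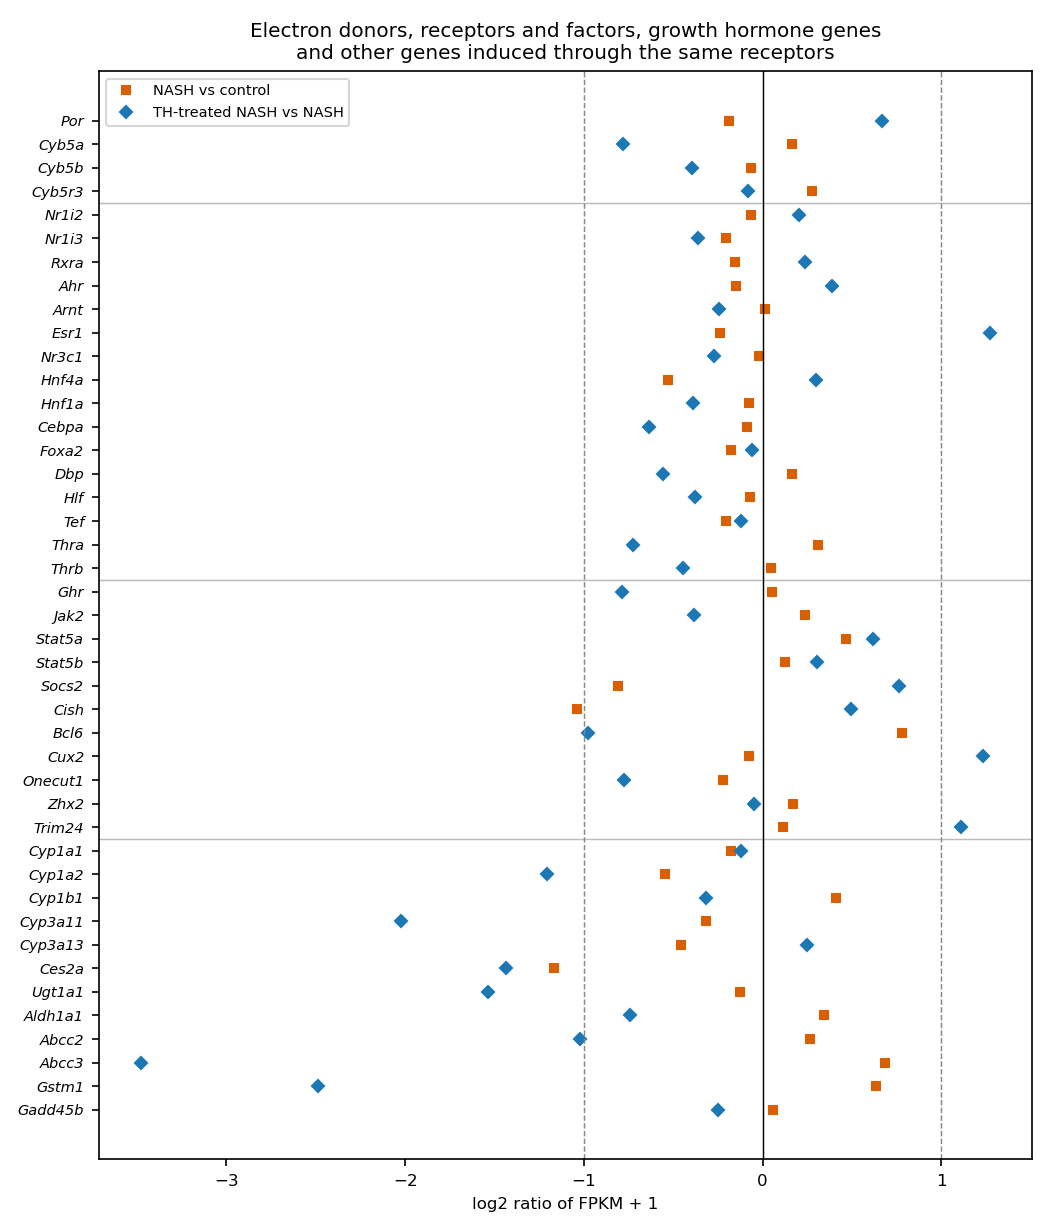
Log2 ratios of FPKM + 1 for genes that are no members, in blocks of electron donors, receptors and liver factors, growth hormone and sex-bias genes, and other receptor-induced genes. Orange squares are NASH against control, blue diamonds TH-treated NASH against NASH, and dashed lines mark 2-fold: 7 blue diamonds of the last block lie left of the lower line, and those of Esr1, Cux2 and Trim24 right of the upper one.

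Cell type markers also differed between the libraries. Macrophage markers had 5 of 6 called higher in NASH against control, and stellate cell and fibroblast markers 3 of 5, beside 3.33% of all genes. With hormone 3 of the 5 stellate cell and fibroblast markers were called lower, beside 2.77% of all genes. The sums of these 5 were 67.8, 138 and 92.6 FPKM. Endothelial markers summed to 21.6, 27.1 and 26.2 FPKM and cholangiocyte markers to 3.30, 4.83 and 2.29. Of the 9 hepatocyte markers 2 were called higher and none lower with hormone, beside 2.73% and 2.77% of all genes. The part of these cell types in the member values was not tested. Of 5 markers of lung, kidney and olfactory tissue, which express Cyp2 genes of their own, Sftpc, Scgb1a1 and Umod had no fragment in any library, and the 5 summed to at most 0.203 FPKM.

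RefSeq promoter windows were matched for 41 members, in 43 windows of the 250 bases before a start. The letters TATAAA, searched on both strands like all that follow, occurred in 18 of the 43 (41.9%), beside 12.4% of all 32851 windows of that length. The receptor half-site AGGTCA occurred in 10 of 43 (23.3%), beside 14.0%, and those 10 included Cyp2c29, Cyp2c70, Cyp2f2, Cyp2j5 and Cyp2b9. With hormone Cyp2c29, Cyp2f2 and Cyp2j5 were lower, Cyp2c70 was higher and Cyp2b9 was 1.05-fold lower (0.807 to 1.37). The Cyp2c39 match lay before a RefSeq start at 39347346, far from the deposited gene start at 39510862. The Cyp2c39 window next to the deposited start had no match. A direct repeat of that half-site with any 4 bases between its copies, which contains AGGTCA, was in none of the member windows and in 5 of all windows. The STAT letters TTCNNNGAA occurred in 2 of 43 (4.65%), those of Cyp2j11 and Cyp2j12, beside 7.02%. Members share ancestry and partly overlap in sequence, so these windows are not independent of each other.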

How the data were processed

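Bulk polyA RNA of 3 mouse livers or liver pools was sequenced, 1 library per group. TopHat2 and HTSeq are named in the submitters' processing notes. Versions, genome build, strand mode and the handling of reads that fit several genes are not given in the sources read. The authors deposited FPKM per gene, with gene length and position.

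FPKM times length came in whole multiples of 1 step per library, and 100% of values above 0 gave whole fragments within 0.01. Ratios of these fragments carry exact 95% intervals (conditional binomial, Clopper-Pearson), for sums of genes from their summed fragments. Since PCR copies are not independent, these cover counting error only. A count of 0 was read as up to 3 counts. Log2 ratios used a pseudocount of 1 FPKM. Genes counted as higher or lower had at least 1 FPKM in either library and a 2-fold difference on that scale. Beside the members, 13 lists of other genes and markers and 3 lists of members were described by counts. A gene of the receptor list is not reported here.

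Members matched GENCODE M21 by gene ID, 50 of 50, with the same start and end for 29. Coding identity and shared 50-base windows came from 49 members' GENCODE M21 transcripts, and upstream sequence from RefSeq on GRCm38.p6. Cyp2d37-ps had no windows counted and was kept wherever sharing members were left out. Groups of copies have at least 95% coding identity.

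The named members are those at least 2-fold apart in any comparison, those of at least 10 FPKM in any library and the most abundant of each subfamily. Members and lists were chosen with earlier results of these data known. The check of Xist and Y-linked genes, the summing of close copies and the removal of members that share over 25% of their windows were added after seeing the data. Alternatives were pseudocounts of 0.1 and 5 FPKM, other filters, scaling by median of ratios, by TMM or by totals that leave out the 50 most abundant genes, thresholds of 1.5-fold and 4-fold, and other ways of summing. The steps were checked on simulated data. Python 3.11.15, pandas 2.3.3, numpy 2.4.6, scipy 1.17.1, Biopython 1.88 and matplotlib 3.10.9 were used.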

Additional observations from a re-analysis of the deposited data

Results flagged for a closer look

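Outside the members, the table types 7 Cyp2 rows as pseudogenes, and 2 of them had a fragment. Cyp2d41-ps stood out because it was above its control level: 2.96, 2.12 and 7.40 FPKM in control, NASH and TH-treated NASH, from 243, 150 and 426 fragments. It lies on chromosome 15 from 82777931 to 82782110, between Cyp2d40 and Cyp2d26. TH-treated NASH was 3.49-fold over NASH (2.89 to 4.23), beside 1.66-fold for Cyp2d40. Cyp2d40 shares 13.4% of its 50-base windows with Cyp2d41-ps, and the part of shared reads in this value was not tested.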

How the results depend on the processing

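No paired analysis was possible because each group is 1 library, and for the same reason no library could be left out. Of 450 values of single members under an alternative, 424 stayed on the same side of 2-fold and 26 crossed it, and no called member turned direction. For NASH against control, where 3 members were higher and 2 lower, the higher count was 0 with a pseudocount of 5 FPKM, at least 5 FPKM or 4-fold, 6 with 1.5-fold, and 1 with copies summed or without members sharing over 25% of windows. The lower count was 1 with a pseudocount of 5 FPKM or at least 5 FPKM, 4 under median-of-ratios or TMM scaling, 7 with 1.5-fold, and 0 with 4-fold, with copies summed or without the sharing members. The members' median of -0.16 was 0.0513 without the sharing members. Of all genes in that comparison, 10.5% were higher and 2.57% lower with 1.5-fold, and 0.313% and 0.0957% with 4-fold. With a pseudocount of 5 FPKM these shares were 0.878% and 0.470%, and with at least 5 FPKM 3.35% and 1.16%. Under median-of-ratios scaling they were 2.33% and 1.24%, and under TMM scaling 2.49% and 1.15%. For TH-treated NASH against NASH, 4 higher became 0 with copies summed and 0 without the sharing members, and 9 lower became 14 with 1.5-fold, 4 with 4-fold and 4 without the sharing members. Among all genes 9.03% were lower there with 1.5-fold and 0.409% with 4-fold. For TH-treated NASH against control, 7 higher became 3 with a pseudocount of 5 FPKM, 2 with 4-fold and 3 with copies summed or without the sharing members, and 11 lower became 6 with 4-fold and 6 without the sharing members. Among all genes 1.98% were higher there with a pseudocount of 5 FPKM. With 4-fold 0.933% were higher and 0.357% lower. The shares over all genes were not recounted with copies summed or without the sharing members.

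The log2 ratio of the family total was -0.08 for NASH against control, and -0.30 under median-of-ratios, -0.26 under TMM, -0.10 without the 50 most abundant genes and -0.20 without Cyp2e1. For TH-treated NASH against NASH it was -0.70, and in that order -0.66, -0.71, -0.71 and -0.65, and -0.74 in scaled fragments. For TH-treated NASH against control it was -0.78, and in that order -0.95, -0.97, -0.81 and -0.85, and -0.82 in scaled fragments. Subfamilies lower in NASH than in control were 4 of 9, and 7 under median-of-ratios or TMM scaling. Without the most abundant member of each subfamily, 5 could be summed, of which 1 was lower in NASH than in control, 4 in TH-treated NASH than in NASH and 4 in TH-treated NASH than in control. The cause of these differences was not tested, except that higher thresholds, stricter filters and fewer genes leave fewer to count. Depth limits the low members: a Cyp2b9 ratio rests on 2 control fragments.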

Other observations

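The members can be ordered by their path through the 3 libraries. Of the 31 members at 1 FPKM or more in any library, 12 were lower at both steps, among them Cyp2c29, Cyp2c44, Cyp2d9 and Cyp2f2. Another 5 were higher at both steps, Cyp2a4, Cyp2a22, Cyp2c38, Cyp2d37-ps and Cyp2d40, and 9 were highest in NASH, among them Cyp2a5, Cyp2e1 and Cyp2j5. The last 5, Cyp2c40, Cyp2c68, Cyp2c69, Cyp2c70 and Cyp2j9, were lowest in NASH. The 2 steps share the NASH library, so a high or low value in it gives opposite ratios, and these names were read after their values were seen.

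The sequences before the starts were more alike for Cyp2b9 and Cyp2b13, at 99.2% identity, and for Cyp2c40 and Cyp2c69, at 98.6%, than for Cyp2d9 and Cyp2d10, at 84.6%, or Cyp2c37 and Cyp2c50, at 86.3%. Cyp2c37 and Cyp2c50 were lower by similar folds with hormone, 2.83-fold and 2.79-fold, whereas Cyp2d9 and Cyp2d10 were 4.85-fold and 1.16-fold lower. Cyp2b9 was 1.05-fold lower and Cyp2b13 6.38-fold higher, the latter from 5 and 26 fragments. Cyp2c40 and Cyp2c69 were 19.8-fold and 48.7-fold higher, and Cyp2a4 and Cyp2a5 went in opposite directions. Whether likeness before the starts goes with these folds was not tested.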
